A study of Mus musculus with 9 samples.

Results

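The genes described here encode 8 enzymes that run the pentose phosphate pathway or make NADPH in the cytosol: G6pdx, Pgls, Pgd, Rpia, Tkt, Taldo1, Me1, and Idh1. They were taken by name from the 54532 genes listed for the series, and each name matched 1 row. Transcript levels were measured by RNA sequencing in 9 libraries of B.END3, an endothelial cell line from the mouse brain. The 3 Ctrl libraries came from untreated cells. The 3 Ep1 libraries came from cells given 300 µg/mL porfimer sodium, a photosensitizer, for 90 min and then 635 nm light at 100 mW/cm2 up to a dose of 10 J/cm2. The 3 Ep2 libraries came from cells treated the same way up to 20 J/cm2. Since Ctrl cells are labelled untreated, photosensitizer and light cannot be told apart in a comparison with Ctrl, while the labels of Ep1 and Ep2 differ in light dose only. The time from light to lysis was not given in the sources used here. Nothing says that the libraries of a group came from separate cultures, so p-values measure only the spread between these libraries, which may be technical.

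The pentose phosphate pathway branches from glycolysis at glucose 6-phosphate. Its oxidative arm makes NADPH and ribulose 5-phosphate, and its reversible non-oxidative arm interconverts sugar phosphates, feeding ribose 5-phosphate to nucleotide synthesis or carbon back to glycolysis. NADPH supplies the electrons that glutathione reductase and thioredoxin reductase pass on to remove peroxides, and it drives fatty acid and sterol synthesis. Porfimer sodium under red light generates reactive oxygen species (ROS), and several of these enzyme genes, Me1 and G6pdx among them, are known targets of NRF2, a transcription factor of the oxidative stress response.

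Levels are given in FPKM (fragments scaled by gene length and library depth). The libraries held 16240688 to 19509225 fragments on genes. The labelled cell type was checked against its markers. Of 12 endothelial markers 3 reached 1 FPKM in any library, Flt1, Egfl7, and Cdh5. Flt1 averaged 6.90 FPKM in Ctrl and 10.9 in Ep2, Egfl7 2.09 and 1.65, and Cdh5 0.857 and 0.753. Erg and Emcn were at 0 in every library, and Pecam1, Kdr, Tek, Cldn5, and Vwf averaged no more than 0.197 FPKM in Ctrl or Ep2. Most of the 12 markers, Pecam1, Kdr, and Cldn5 among them, are thus at or near 0, and Flt1 is not. The culture notes call the cells rat, while the organism is given as mouse. Epithelial markers reached 1 FPKM in any library for 4 of 8 genes. Krt8 stood at 640 FPKM, Krt18 at 237, and Krt19 at 174 in Ctrl, and Krt5 and Krt7 at 0. Epcam, the last of the 4, averaged 0.812 FPKM in Ctrl and 1.77 in Ep2, and Cdh1 and Krt14 no more than 0.0763 in any group. Krt8, Krt18, and Krt19 thus make up nearly all of the epithelial sum. The summed epithelial markers were 1029 to 1081 FPKM in Ctrl, 937 to 1041 in Ep1, and 1155 to 1372 in Ep2, and the endothelial sum was 10.2 to 10.4, 10.3 to 11.8, and 13.3 to 14.4. Both sums were higher in Ep2 than in the other groups, and their part in the results on the enzyme genes was not tested. Of 8 mural or fibroblast markers 1 reached 1 FPKM, and 0 of 5 microglia and 0 of 4 astrocyte or neuron markers did. The share of fragments on mitochondrially encoded genes was 1.90% to 1.99% in Ctrl, 1.997% to 2.08% in Ep1, and 2.04% to 2.49% in Ep2, and its part was not tested either. In bulk RNA, fewer cells that express a gene and less RNA per cell cannot be told apart.

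After the higher light dose the 8 genes did not move together. Me1 rose and Rpia, G6pdx, Pgls, and Tkt fell, while Pgd, Taldo1, and Idh1 did not pass the test. After the lower dose only Me1 passed it, and that call was lost when single libraries were left out. Tests were run on log2(FPKM + 1) with limma over the 11727 genes that reached 1 FPKM in 3 or more libraries, with Benjamini-Hochberg adjusted p-values called below 0.05. All 8 genes passed that filter, with 231 to 11479 fragments each per library. In Ep2 against Ctrl, 1 of the 8 was called higher and 4 lower, while 23.9% of all tested genes were called higher, 29.3% lower, and 53.2% in either direction. In Ep1 against Ctrl, 1 was called higher and 0 lower, beside 6.32%, 4.97%, and 11.3% of all tested genes. For the 0 lower genes of Ep1, 2 had an unadjusted p below 0.05 in limma, and voom, limma's test for counts, also called 0. In Ep2 against Ep1, 1 was called higher and 4 lower, beside 18.8%, 25.2%, and 44.0%. The share of the 8 genes called in either direction was near that of all genes in Ep1 and somewhat above it in Ep2, and with 8 genes nothing particular to them is read from these shares. The median log2 fold change of the 8 genes was -0.02 in Ep1 and -0.10 in Ep2 against Ctrl and -0.12 in Ep2 against Ep1, while the medians of all tested genes were -0.01, -0.03, and -0.01. With an absolute log2 fold change above 0.6 as a further condition, 2 of the 8 genes (Me1 and Rpia) were called in Ep2 against Ctrl, where 9.17% of tested genes were. Under the same condition 0 were called in Ep1 against Ctrl, beside 0.793% of tested genes, with 0 at an unadjusted p and 0 by voom. In Ep2 against Ep1 0 were called, beside 5.90%, with 0 at an unadjusted p and 2, Me1 and Rpia, by voom. Ep1 and Ep2 were compared with the same 3 Ctrl libraries, so their values for a gene share that error.

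**Figure D1:**
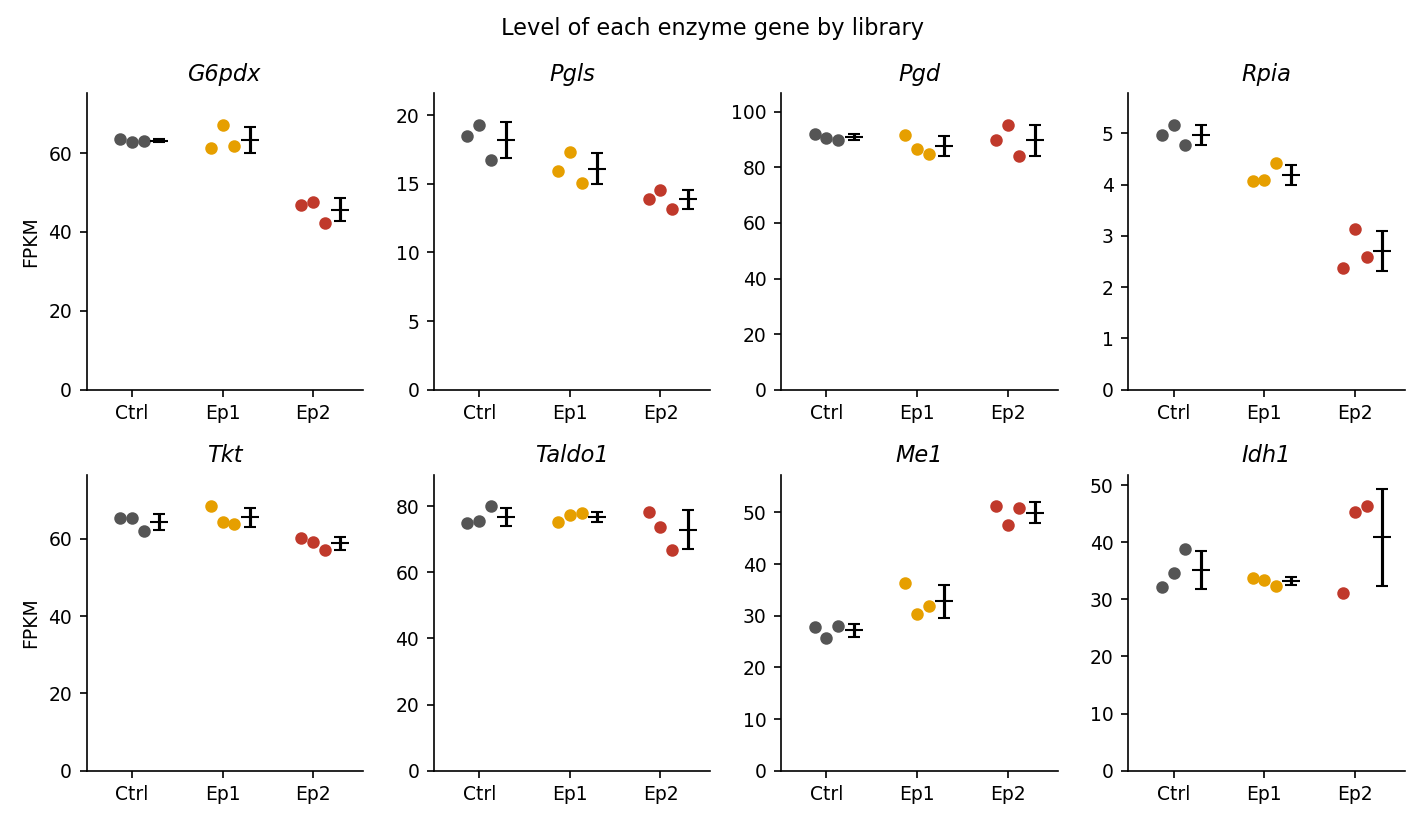
Level of each of the 8 enzyme genes in FPKM (y axis, from 0, scaled for each gene) in the 3 libraries of Ctrl, Ep1, and Ep2 (points), with the mean and SD of each group (black bar). The Ep2 libraries of Me1 lie above, and those of G6pdx, Pgls, Rpia, and Tkt below, all Ctrl and Ep1 libraries, while 1 Ep2 library of Idh1 lies apart at 31.1 FPKM.

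The promoters of the 3 genes with the largest fitted changes in Ep2, Me1, Rpia, and G6pdx, are shown since 2 of them hold the core of the antioxidant response element, the sequence bound by NRF2 with small MAF proteins. The search covered RefSeq windows on GRCm38.p6 of 250 bases before to 50 after the start of transcription, and 245 bases before to 5 after it are printed. Capitals mark matches of TGACNNNGC on either strand.
Me1, chr9:86695910-86696159, minus strand: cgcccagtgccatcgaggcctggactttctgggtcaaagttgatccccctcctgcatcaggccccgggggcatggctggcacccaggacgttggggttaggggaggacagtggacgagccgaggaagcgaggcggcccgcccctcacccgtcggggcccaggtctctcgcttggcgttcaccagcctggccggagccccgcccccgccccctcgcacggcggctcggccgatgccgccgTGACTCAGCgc
G6pdx, chrX:74428876-74429125, minus strand: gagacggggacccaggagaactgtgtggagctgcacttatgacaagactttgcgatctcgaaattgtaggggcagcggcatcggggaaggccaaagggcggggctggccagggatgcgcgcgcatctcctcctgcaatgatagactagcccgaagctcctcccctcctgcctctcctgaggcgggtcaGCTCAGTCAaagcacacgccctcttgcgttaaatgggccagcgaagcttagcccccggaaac
Rpia, chr6:70792171-70792420, minus strand: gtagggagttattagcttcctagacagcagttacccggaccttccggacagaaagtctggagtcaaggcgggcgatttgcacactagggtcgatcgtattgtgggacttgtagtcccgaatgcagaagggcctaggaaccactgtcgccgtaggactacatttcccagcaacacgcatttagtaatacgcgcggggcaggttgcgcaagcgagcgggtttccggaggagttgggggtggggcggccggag
The core was present in 2 of the 8 windows, those of Me1 and G6pdx, and 12.4% of 32851 RefSeq windows of this length hold it. In Me1 the match TGACTCAGC lies on the strand of the gene and begins 6 bases before the start. Its first letters are also TGACTCA, the AP-1 motif, which 5.20% of windows hold. The RefSeq start of Me1 lies 39 bases inside the listed gene, so this match is part of the gene as listed. In G6pdx the match lies on the opposite strand, read as GCTCAGTCA on the strand of the gene, and begins 57 bases before the start. The start of G6pdx in RefSeq lies 314 bases inside the listed gene, so the printed stretch is part of the gene as listed. The letters were not found in the windows of Rpia, Pgls, Pgd, Tkt, Taldo1, and Idh1. For Tkt the RefSeq start lies 772 bases inside the listed gene. Pgd, Me1, and Idh1 have 2 RefSeq windows each, and only the window nearest the listed start was searched. The 2 genes with a match moved in opposite directions in Ep2, Me1 up and G6pdx down. A match describes letters only, and binding was not measured.

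G6pdx encodes the first and rate-limiting enzyme of the oxidative arm and an NADPH maker (ENSMUSG00000031400, chrX:74409483-74429194 on GRCm38, minus strand). It stood at 63.5, 62.8, and 63.1 FPKM in Ctrl, at 61.2, 67.1, and 61.8 in Ep1, and at 46.9, 47.7, and 42.4 in Ep2. The 3 Ep2 libraries lie below the other 6, and Ctrl and Ep1 overlap. The mean fell from 63.1 ± 0.331 to 45.6 ± 2.85 (SD, n = 3 each), which is 27.7% lower in Ep2 than in Ctrl. The log2 fold change was -0.46 (SE 0.05, adjusted p = 0.000101 in limma) against Ctrl and -0.46 (adjusted p = 0.000152) against Ep1. Against Ctrl, Ep1 differed by 0.00, with a 95% confidence interval from -0.12 to 0.12. The listed span of Ikbkg, a subunit of the kinase that activates NF-κB, covers all 19712 bases of G6pdx on the opposite strand, and in the GENCODE M39 annotation the exons of the 2 genes share 526 bases, 8.13% of the exonic bases of G6pdx. Ikbkg stood at 10.0 ± 0.752 FPKM in Ctrl and at 15.7 ± 0.287 in Ep2 (SD, n = 3 each). It was called higher there by 0.60 on the log2 scale (adjusted p = 3.27e-05 in limma), the opposite direction. Whether the counting used strand is not given in the sources used here, so reads of the shared bases cannot be told apart. G6pd2, a copy of G6pdx 93.2% identical over 2332 aligned bases, was listed at 0 in all 9 libraries.

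Pgls encodes 6-phosphogluconolactonase, which opens the lactone made in the step before it (ENSMUSG00000031807, chr8:71592176-71601092, plus strand). Its level was 18.5, 19.3, and 16.7 FPKM in Ctrl, 15.9, 17.3, and 15.1 in Ep1, and 13.9, 14.6, and 13.2 in Ep2. The Ep2 libraries lie below all others, and Ctrl and Ep1 overlap. Pgls fell in Ep2 against Ctrl by 0.36 on the log2 scale (SE 0.07, adjusted p = 0.00154 in limma), a mean 23.6% lower. In Ep1 against Ctrl the log2 fold change was -0.16 (adjusted p = 0.143), which did not pass the test. In Ep2 against Ep1 it was -0.20 (adjusted p = 0.0366), a call that was lost in 9 of 18 other fits, among them those without Ctrl replicate 1 (0.0517), Ep1 replicate 1 (0.0700), Ep1 replicate 2 (0.132), Ep2 replicate 1 (0.0604), or Ep2 replicate 3 (0.103). Fam129c overlaps Pgls on the same strand and was listed at 0.182 to 0.516 FPKM. In the GENCODE M39 annotation their exons share 935 bases, 18.1% of the exonic bases of Pgls. Reads of these bases cannot be told apart.

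Pgd encodes 6-phosphogluconate dehydrogenase, the enzyme that makes NADPH and ribulose 5-phosphate at the end of the oxidative arm (ENSMUSG00000028961, chr4:149149991-149166771, minus strand). It was the highest of the 8 genes in every group, at 92.0, 90.7, and 89.9 FPKM in Ctrl, at 91.6, 86.8, and 84.8 in Ep1, and at 89.9, 95.2, and 84.0 in Ep2. The groups overlap. The log2 fold change was -0.05 in Ep1 (95% confidence interval -0.16 to 0.06) and -0.02 in Ep2 (-0.13 to 0.09) against Ctrl. Thus G6pdx and Pgd, which catalyse the NADPH-making steps of the same arm, parted in Ep2: the ratio of G6pdx to Pgd FPKM was 0.690 to 0.701 in Ctrl, 0.668 to 0.773 in Ep1, and 0.501 to 0.522 in Ep2. The summed FPKM of the oxidative genes was 170 to 174 in Ctrl, 162 to 171 in Ep1, and 140 to 157 in Ep2.

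Rpia encodes ribose 5-phosphate isomerase, the step that turns ribulose 5-phosphate into the ribose 5-phosphate of nucleotides (ENSMUSG00000053604, chr6:70765720-70792232, minus strand). It was the lowest of the 8 genes, at 4.96, 5.16, and 4.78 FPKM in Ctrl, at 4.07, 4.08, and 4.42 in Ep1, and at 2.38, 3.13, and 2.60 in Ep2. The 3 groups do not overlap and fall from Ctrl to Ep1 to Ep2. In Ep2 the mean was 45.6% lower than in Ctrl, with a fitted log2 difference of -0.69 (SE 0.08, adjusted p = 7.74e-05 in limma), and against Ep1 the difference was -0.49 (adjusted p = 0.000819). In Ep1 against Ctrl it was -0.20 (95% confidence interval -0.37 to -0.03, adjusted p = 0.117), which did not pass the test, although a fit of only those 2 groups gave an adjusted p of 0.0375. With a level this low, the pseudocount of 1 pulls the log2 values towards 0: the ratio of the Ep2 mean to the Ctrl mean was 0.544.

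Tkt encodes transketolase, which moves 2-carbon units between sugar phosphates (ENSMUSG00000021957, chr14:30548359-30574720, plus strand). It stood at 65.5, 65.5, and 61.9 FPKM in Ctrl, at 68.5, 64.5, and 64.0 in Ep1, and at 60.2, 59.2, and 57.0 in Ep2. The Ep2 libraries lie below the others, by a small margin. Tkt fell in Ep2 by 0.13 against Ctrl (SE 0.04, adjusted p = 0.0326 in limma) and by 0.16 against Ep1 (adjusted p = 0.0164) on the log2 scale. The call against Ctrl was lost in 8 of 18 other fits, among them median centring (adjusted p = 0.152) and those without Ctrl replicate 1 (0.102), Ctrl replicate 2 (0.107), Ep2 replicate 2 (0.0635), or Ep2 replicate 3 (0.0920). The call against Ep1 was lost without Ep1 replicate 1 (0.0580) and with median centring (0.0899).

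Taldo1 encodes transaldolase, which moves 3-carbon units and links the pathway back to glycolysis (ENSMUSG00000025503, chr7:141392199-141402968, plus strand). Its level was 74.9, 75.4, and 80.0 FPKM in Ctrl, 75.1, 77.4, and 78.0 in Ep1, and 78.4, 73.6, and 66.7 in Ep2. The groups overlap, and Ep2 spread most. The log2 fold change was 0.00 in Ep1 (95% confidence interval -0.13 to 0.13) and -0.08 in Ep2 (-0.21 to 0.05) against Ctrl. Cep85l, with a transcript 93.3% identical to Taldo1 over 1111 bases, was listed at 0.617 to 1.31 FPKM. The summed FPKM of Rpia, Tkt, and Taldo1 was 145 to 147 in Ctrl, 146 to 148 in Ep1, and 126 to 141 in Ep2.

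Me1 encodes cytosolic malic enzyme, which makes NADPH and pyruvate from malate (ENSMUSG00000032418, chr9:86581371-86695953, minus strand). It stood at 27.9, 25.7, and 28.0 FPKM in Ctrl, at 36.3, 30.3, and 31.8 in Ep1, and at 51.2, 47.6, and 50.9 in Ep2. The 3 groups do not overlap and rise from Ctrl to Ep1 to Ep2. In Ep2 the mean was 49.9 ± 2.02 against 27.2 ± 1.31 in Ctrl (SD, n = 3 each), a ratio of 1.84. The fitted log2 difference was 0.85 (SE 0.07, adjusted p = 1.44e-05 in limma). Against Ep1 the log2 fold change of Ep2 was 0.59 (adjusted p = 0.000151). In Ep1 against Ctrl it was 0.26 (SE 0.07, adjusted p = 0.0416), a mean 20.6% higher. This last call was lost without Ctrl replicate 1 (0.0952), Ctrl replicate 2 (0.155), Ctrl replicate 3 (0.0631), Ep1 replicate 1 (0.106), Ep1 replicate 3 (0.0992), or Ep2 replicate 2 (0.0535), and in 2 of 9 other settings, while the log2 fold change stayed between 0.19 and 0.31 over the libraries left out. A processed pseudogene 97.4% identical to Me1 over 1734 bases, Gm7049, was listed at no more than 0.106 FPKM. A transcript of Rwdd2a is 100% identical to Me1 over 2146 bases on the opposite strand. Rwdd2a was listed at 0.259 to 0.775 FPKM. Since the strand setting of the counting is not given, reads of the bases that Me1 and Rwdd2a share cannot be told apart. Me1 is the gene with the antioxidant response core next to its RefSeq start among the promoters printed above. Any part of the core in the change of Me1 was not tested.

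Idh1 encodes cytosolic isocitrate dehydrogenase, which makes NADPH and 2-oxoglutarate from isocitrate (ENSMUSG00000025950, chr1:65158616-65186500, minus strand). Its level was 32.2, 34.6, and 38.8 FPKM in Ctrl, 33.8, 33.4, and 32.3 in Ep1, and 31.1, 45.3, and 46.3 in Ep2. Replicate 1 of Ep2 lies below all other libraries, and replicates 2 and 3 lie above all of them. The log2 fold change was 0.19 in Ep2 against Ctrl (SE 0.14, adjusted p = 0.272 in limma), 0.27 against Ep1 (adjusted p = 0.148), and -0.08 in Ep1 against Ctrl (adjusted p = 0.754). Idh1 had the widest interval of the 8 genes, from -0.12 to 0.51 in Ep2 against Ctrl. Without Ep2 replicate 1 its log2 fold change was 0.38 against Ctrl (adjusted p = 0.00180) and 0.45 against Ep1 (adjusted p = 0.00100), so that library decides the call.

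**Figure D2:**
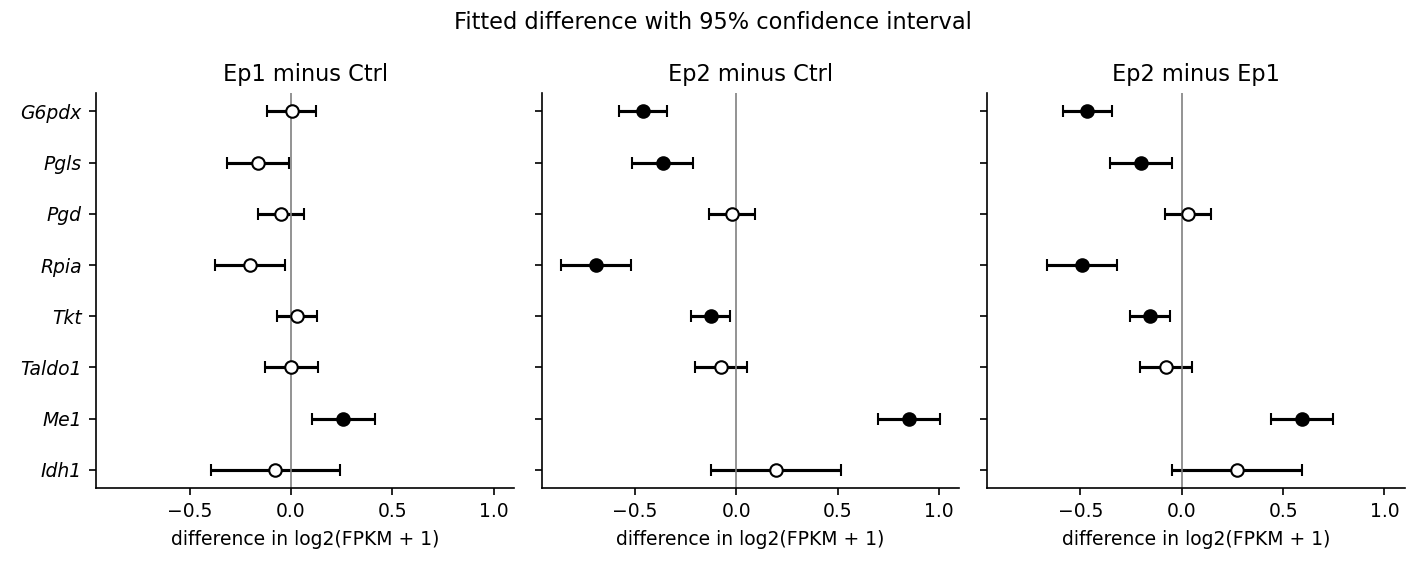
Fitted difference in log2(FPKM + 1) (x axis) of each gene (y axis) in the 3 comparisons, with 95% confidence intervals. Filled points have an adjusted p below 0.05. Me1 is the only gene to the right of 0 among filled points, at 0.26, 0.85, and 0.59, and Rpia lies farthest to the left in Ep2, at -0.69 against Ctrl.

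FPKM is per length, so a comparison of levels between genes rests on the listed gene lengths. In Ctrl the order was Pgd, Taldo1, Tkt, G6pdx, Idh1, Me1, Pgls, and Rpia, and only the ranges of Tkt and G6pdx overlapped between neighbours. In Ep1 the order was the same, and Idh1 and Me1 overlapped too. In Ep2 Me1 came next after Tkt, at 49.9 FPKM, with G6pdx at 45.6 and Idh1 at 40.9, and the ranges of Me1 and G6pdx and of G6pdx and Idh1 overlapped. The gene lengths behind FPKM run from 2171 bases for Taldo1 to 7355 for Tkt, as listed, and a listed length longer than the transcripts in these cells would understate a level.

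The 4 genes of the NADPH-making steps, G6pdx, Pgd, Me1, and Idh1, had a summed level of 214 to 220 FPKM in Ctrl, 211 to 223 in Ep1, and 219 to 236 in Ep2, ranges that overlap between Ctrl and both treated groups. Within that sum the share of Me1 was 12.0% to 12.9% in Ctrl, 13.9% to 16.3% in Ep1, and 20.2% to 23.4% in Ep2. The share of G6pdx was 28.7% to 29.5% in Ctrl, 27.4% to 30.8% in Ep1, and 19.0% to 21.4% in Ep2. The ratio of Me1 to G6pdx FPKM was 0.409 to 0.444 in Ctrl, 0.452 to 0.593 in Ep1, and 0.998 to 1.20 in Ep2, so the transcript of Me1 came to the level of that of G6pdx only in Ep2. These ratios are made within a library, so a common scale factor cannot move them, and they were not tested apart from the genes they hold. The size of the ratios and shares rests on the listed gene lengths, as does the group in which Me1 reaches G6pdx. Enzyme activity and NADPH were not measured in these libraries.

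**Figure D3:**
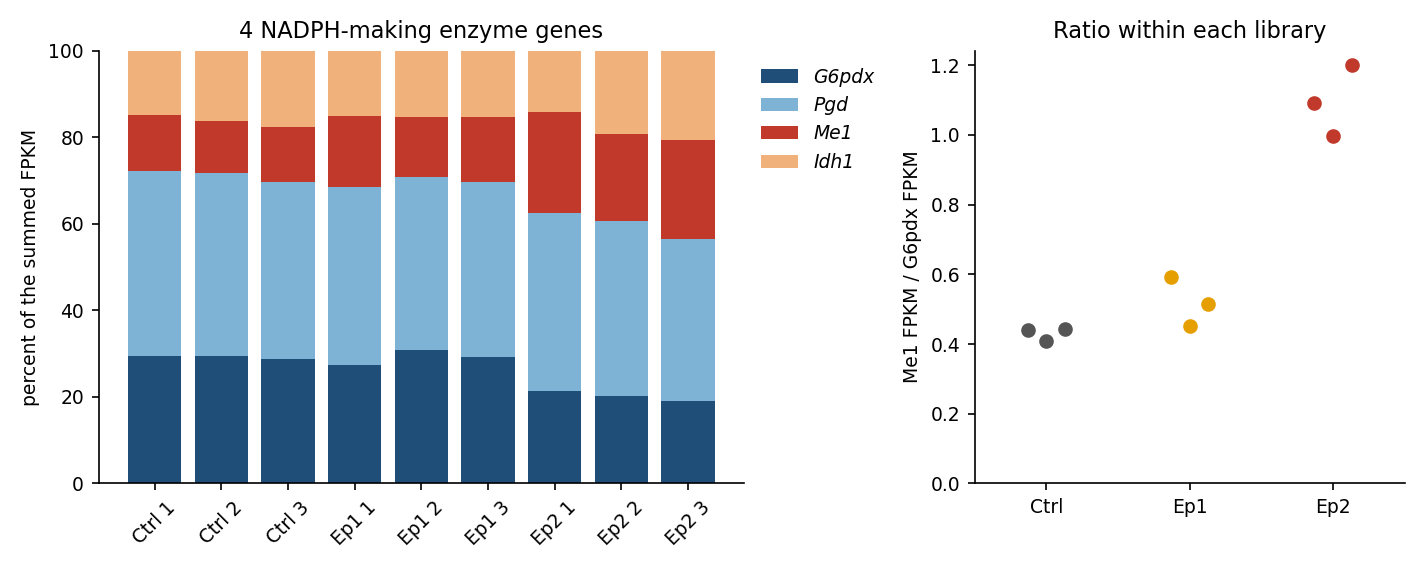
Left, share of G6pdx, Pgd, Me1, and Idh1 in their summed FPKM (y axis, percent) in each of the 9 libraries (x axis). Right, ratio of Me1 to G6pdx FPKM (y axis) by group, with 1 point per library. The share of Me1 is 20.2% to 23.4% in Ep2 against 12.0% to 12.9% in Ctrl, and the ratio is 0.998 to 1.20 in Ep2 against 0.409 to 0.444 in Ctrl.

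Of 14 further genes of the pentose phosphate pathway and of ribose phosphate use, 10 were tested. In Ep1 limma called 0 of them against Ctrl, where 11.3% of all tested genes were called. H6pd alone had an unadjusted p below 0.05, and voom called 0. In Ep2 against Ctrl 0 were called higher, also at an unadjusted p and by voom, and 4 lower. Of all tested genes 23.9% were called higher and 29.3% lower. The median log2 fold change over the 10 was -0.11. Prps1 and Prps2 encode phosphoribosyl pyrophosphate synthetases, which start nucleotide synthesis, and fell by 0.90 (adjusted p = 5.48e-06 in limma) and 0.61 (adjusted p = 0.000166) on the log2 scale. Prpsap1, a protein associated with these synthetases, fell by 0.33 (adjusted p = 0.00256), and Rbks, ribokinase, by 0.75 (adjusted p = 0.00310). Prpsap2, a relative of Prpsap1, had a log2 fold change of -0.03 (adjusted p = 0.703). Rbks was low, at 0.639 FPKM in Ep2 and 1.72 in Ctrl. Rpe, which encodes the epimerase that completes the pathway, had a log2 fold change of -0.12 in Ep2 (adjusted p = 0.152), H6pd, the hexose 6-phosphate dehydrogenase of the endoplasmic reticulum, -0.06 (adjusted p = 0.251), and Pgm2, a phosphopentomutase, -0.05 (adjusted p = 0.376). Of the paralogs of members, Tktl2 was listed at 0 in all libraries, and Tktl1 averaged no more than 0.108 FPKM in any group.

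Of 12 further genes whose enzymes make or can make NADPH or phosphorylate NAD, 9 were tested. In Ep1 limma called 0 against Ctrl, with 1, Aldh1l2, at an unadjusted p below 0.05 and 0 by voom. In Ep2 against Ctrl 2 were called higher and 4 lower, with a median of -0.21. The shares of all tested genes were 23.9% higher and 29.3% lower in Ep2, and 11.3% in either direction in Ep1. Aldh1l2, a mitochondrial folate enzyme, rose by 0.59 (adjusted p = 1.44e-05 in limma) on the log2 scale. Me2, a mitochondrial malic enzyme that works mainly with NAD, rose by 0.14 (adjusted p = 0.0142 in limma). Mthfd1, the cytosolic folate enzyme, fell by 0.96 (adjusted p = 8.50e-06), Nadk, the cytosolic NAD kinase that makes NADP, by 0.32 (adjusted p = 0.000124), and Idh2, the mitochondrial paralog of Idh1, by 0.30 (adjusted p = 0.000103). Idh2 stood at 65.7 FPKM in Ctrl and 53.2 in Ep2, both above the means of Idh1. Me3 averaged no more than 0.0703 FPKM in any group, so Me1 and Me2 were the malic enzyme genes at an FPKM of at least 1, and both were called higher in Ep2.

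Of 16 genes for enzymes that use NADPH, 12 were tested. Against Ctrl 1 was called higher and 1 lower in Ep1, beside 6.32% and 4.97% of all tested genes. For Ep2 the counts were 2 higher and 4 lower, beside 23.9% and 29.3%. The medians were 0.01 and -0.04, and nothing particular to the list is read from these counts. Gsr, glutathione reductase, rose by 0.35 on the log2 scale in Ep1 (limma, adjusted p = 0.0112). Its rise in Ep2 was 0.61 (adjusted p = 3.76e-05). Txnrd1, the cytosolic thioredoxin reductase, rose by 0.39 in Ep2 (adjusted p = 0.00437). Fasn, fatty acid synthase, fell by 0.73 in Ep2 (adjusted p = 0.00113), Nqo1, a quinone reductase, by 0.19 (adjusted p = 0.00179), and Txnrd2, the mitochondrial thioredoxin reductase, by 0.30 (adjusted p = 0.00364). Akr1a1, an aldehyde reductase, fell by 0.18 in Ep1 (adjusted p = 0.0308).

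Among 6 genes for NRF2, its inhibitor Keap1, and its partners and rivals at the same element, 4 were called higher and 0 lower in Ep1 against Ctrl, with 0 lower also at an unadjusted p and by voom, and a median of 0.29. In Ep2 5 were called higher and 0 lower, again with 0 lower at an unadjusted p and by voom, and a median of 0.37. Of all tested genes, 6.32% were called higher and 4.97% lower in Ep1, and 23.9% and 29.3% in Ep2. Nfe2l2, the gene of NRF2, rose by 0.25 in Ep2 (adjusted p = 0.0319 in limma) on the log2 scale. Bach1, which represses NRF2 targets, rose by 0.47 in Ep1 (adjusted p = 0.00521) and 0.79 in Ep2 (adjusted p = 7.00e-06). Of 13 NRF2 targets other than the 8 enzymes, 8 were called higher and 0 lower in Ep1, with 0 lower also at an unadjusted p and by voom, and 10 higher and 1 lower in Ep2, with medians of 0.38 and 0.61. Slc7a11, the cystine transporter, had the smallest adjusted p of both comparisons, with log2 fold changes of 0.96 in Ep1 (adjusted p = 0.00121) and 1.44 in Ep2 (adjusted p = 2.17e-06), and Nqo1 was the target called lower. In Ep2 Me1 was called higher, as were 10 of these 13 genes and 23.9% of all tested genes. G6pdx was called lower, as were 1 of the 13 and 29.3% of all tested genes. Whether NRF2 acts on either gene here was not tested.

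**Figure D4:**
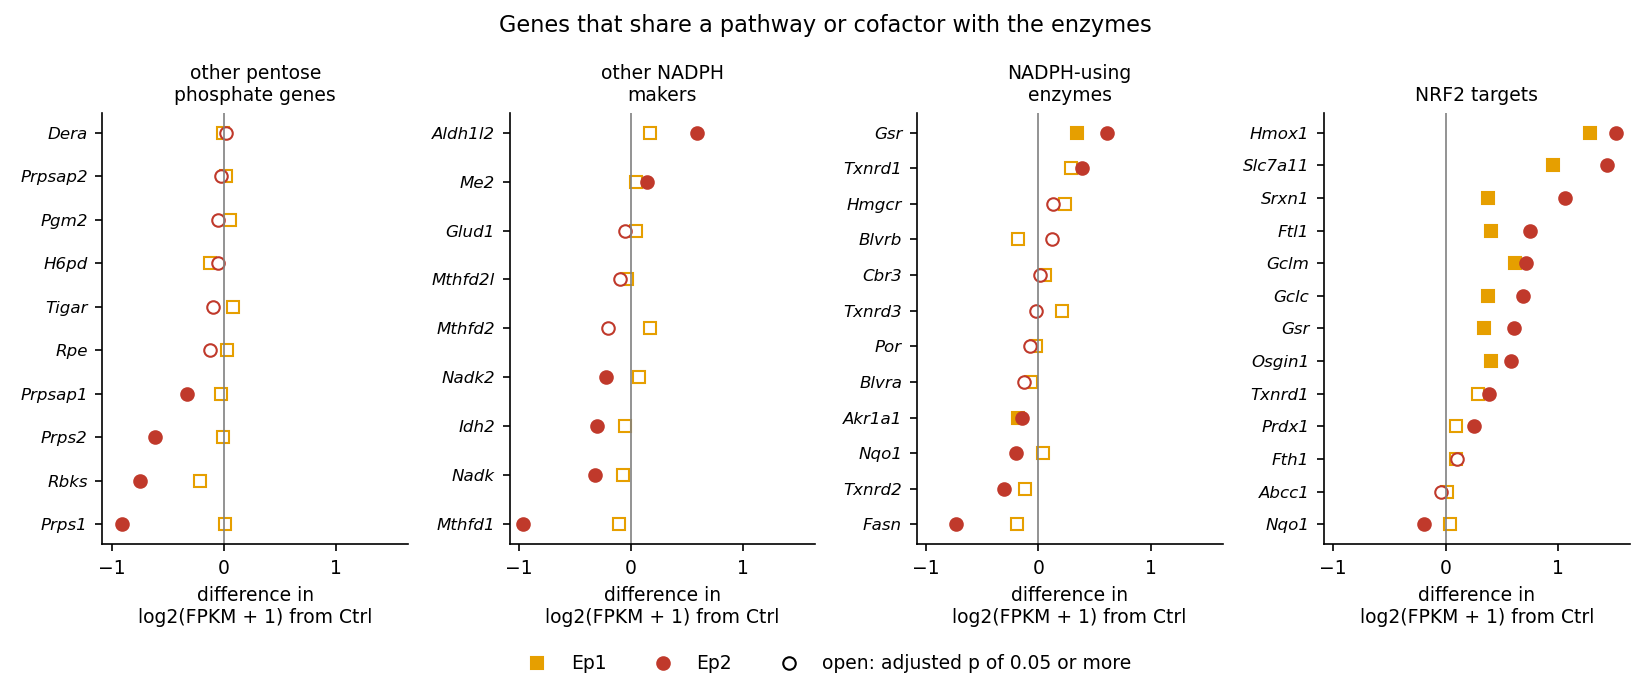
Difference from Ctrl in log2(FPKM + 1) (x axis) of the tested genes (y axis) of 4 lists, in Ep1 (squares) and Ep2 (circles), with filled symbols where the adjusted p was below 0.05 and genes ordered by Ep2. The called genes of the other pentose phosphate genes all lie left of 0, with Prps1 at -0.90, and those of the NRF2 targets right of 0 except Nqo1 at -0.19 in Ep2. Gsr, Txnrd1, and Nqo1 stand in 2 of the lists.

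All 15 genes of glucose uptake and glycolysis were tested. In Ep1 limma called 0 higher and 1 lower against Ctrl, with 0 higher also at an unadjusted p and by voom. For Ep2 against Ctrl the counts were 6 higher and 1 lower. The medians were -0.08 in Ep1 and 0.15 in Ep2. Of all tested genes, 6.32% were called higher and 4.97% lower in Ep1, and 23.9% and 29.3% in Ep2. Pfkp, a phosphofructokinase, rose by 0.49 in Ep2 (adjusted p = 0.000839 in limma), Pgk1, phosphoglycerate kinase, by 0.27 (adjusted p = 0.00598), and Slc2a1, the glucose transporter GLUT1, by 0.50 (adjusted p = 0.00993) on the log2 scale. Eno1, an enolase, was called lower in both, by 0.14 in Ep1 (adjusted p = 0.0326) and 0.23 in Ep2 (adjusted p = 0.000429). Gpi1, which turns glucose 6-phosphate into fructose 6-phosphate, was called higher in Ep2 with a log2 fold change of 0.19 (adjusted p = 0.0220), while G6pdx fell.

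Over the 9 libraries, the genes whose log2(FPKM + 1) was most like that of G6pdx were Slc25a5, Mrps27, Senp3, H2afz, and Rrp7a, each with a Pearson r of 0.99. All 5 were called lower in Ep2, as G6pdx was, which follows from choosing them by its profile and is no further result. Those most like the mean standardised profile of the 8 genes were 1700037C18Rik (r = 0.97), Serhl (0.96), Col16a1 (0.96), Ncaph2 (0.95), and Pradc1 (0.95). Those most like Me1, a comparison chosen after its values were seen, were Slc41a2, Dync1i2, Ctnna1, Klhdc1, and Erp44, with r of at least 0.99. Among the members, r was -0.97 between Me1 and Rpia, -0.93 between Me1 and G6pdx, and 0.91 between G6pdx and Rpia. These are descriptions over 9 libraries in 3 groups, which share the difference between Ep2 and the rest.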

How the data were processed

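RNA of 9 B.END3 libraries was sequenced in the study. The authors deposited 1 FPKM value per gene and library, normalized for gene length and library size, in a joint table of 54532 genes and in 9 single tables equal to it. Per the labels, the submitters' processing notes name Bowtie 0.12.2 and mm8, while the methods name GRCm39. The counting tool and its strand setting are not given in the sources used here. Of 37614 genes compared, 99.89% of the listed positions overlapped the gene on GRCm38, so positions refer to GRCm38. The listed Pgm2 and Pgm1 names are swapped against present use, and Pgm2 was taken by its identifier.

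From FPKM, log2(FPKM + 1) was calculated for the 11727 genes reaching 1 FPKM in 3 or more libraries. All 9 libraries were fitted in 1 limma 3.58.1 model (R 4.3.3, variance trend, robust estimation, no covariate), with Benjamini-Hochberg adjustment within each comparison and calls at an adjusted p below 0.05. FPKM multiplied by length gave whole fragments for 100% of values (within 0.05), used for totals and for voom. The alternatives were a pseudocount of 0.1, no filter, a stricter filter (5 FPKM), median centring, length correction, voom on genes reaching 10 fragments in 3 or more libraries, a fit of only the groups compared, a replicate block, a plain variance model, a minimum log2 fold change of 0.6, and each library left out. The fit was also run on simulated counts with a spread set in advance, and nothing about these data is read from that run. Copies of members were searched with BLAST 2.17.0 in GENCODE M39 transcripts, with alignments of at least 500 bases. Promoter windows came from RefSeq on GRCm38.p6 and matched all 8 members.

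The members and lists were chosen with earlier results of these data known. Named are all members, their paralogs and Rpe, up to 3 called genes with the smallest adjusted p per list, direction, and comparison with Ctrl, and the 5 genes most like G6pdx and most like the mean of the members. Other names (Rbks, Prpsap2, Nfe2l2, Gpi1, genes that overlap or resemble a member, and the genes most like Me1) were chosen after their values were seen. Of the genes for enzymes that use NADPH, 1 is not reported here, and the counts of that list leave it out.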

Additional observations from a re-analysis of the deposited data

How the results depend on the processing

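The calls of Me1, G6pdx, Rpia, and Pgls in Ep2 against Ctrl kept their direction in every fit in which they were tested and had an adjusted p below 0.05 there, with Rpia not tested under the stricter filter. The fold change condition kept Me1 and Rpia and not G6pdx and Pgls. The number of members called moved as follows. In Ep1 it was 0 with no filter, 0 with the plain variance model, 2 with only the 2 groups compared (Me1 and Rpia), 0 with the fold change condition, and 0 to 1 when single libraries were left out. In Ep2 against Ctrl it was 2 with the fold change condition, 4 with no filter, the stricter filter, median centring, only the 2 groups compared, or the plain variance model, and 4 to 6 when single libraries were left out. In Ep2 against Ep1 it was 3 with median centring, 4 with no filter, the stricter filter, length correction, or voom, 0 with the fold change condition, and 3 to 5 when single libraries were left out. Changes of sign were seen only for members near 0 that passed no test. In Ep1 the log2 fold change of G6pdx turned to -0.0052 with median centring, -0.014 with voom, and ranged from -0.037 (without Ep1 replicate 2) to 0.028 when single libraries were left out. That of Taldo1 turned to -0.0075 with median centring, -0.015 with voom, and ranged from -0.016 to 0.031 when single libraries were left out. That of Tkt ranged from -0.0016 (without Ep1 replicate 1) to 0.047. In Ep2 against Ctrl, Pgd turned to 0.026 with median centring and ranged from -0.064 to 0.025 when single libraries were left out, and Taldo1 to 0.019 with length correction. In Ep2 against Ep1, Pgd ranged from -0.013 (without Ep2 replicate 2) to 0.076. The cause of these moves was not tested. Deviations from group means correlated between -0.0565 and 0.0744 for libraries with the same replicate number (9 pairs). For libraries with different numbers the range was -0.108 to 0.153 (18 pairs). No pairing by number was seen, but with 3 libraries a group this cannot show that the libraries were unpaired. With the replicate block 1, 5, and 5 members were called in Ep1 and Ep2 against Ctrl and in Ep2 against Ep1, as without it. The fragments behind Rpia, 231 to 541 per library, make it the member with the least depth.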
